A study of Mus musculus with 6 samples.

Results

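Transcripts of 7 Ms4a genes (Ms4a4a, Ms4a4b, Ms4a4c, Ms4a6b, Ms4a6c, Ms4a6d and Ms4a7) were followed in cells captured from mouse brain, in 3 samples from mice with experimental autoimmune encephalomyelitis (EAE) and 3 samples from ovalbumin (OVA) mice. The genes were chosen by name, with earlier results of these data known, and are some of the members known from myeloid cells and lymphocytes. Ms4a1, Ms4a2 and Ms4a3, also known from immune cells, are not among the 7 and are described apart. Each of the 7 was matched to 1 identifier, 7 of the 55298 genes in the table and 7 of 21 Ms4a genes. EAE, a model of multiple sclerosis, had been induced with the MOG 35-55 peptide of myelin oligodendrocyte glycoprotein. The OVA mice had received ovalbumin in its place, and both groups were mice of the strain labelled c56Bl/6j that were killed at the peak of disease. Magnetic beads against O4, a sulfatide antigen of late oligodendrocyte precursors and oligodendrocytes, had been used for the capture, and the cells were not cultured. Each EAE sample pooled 2 mice. OVA sample 2 also pooled 2 mice, whereas OVA samples 1 and 3 each held 1 mouse. The labels give no age and no sex.

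Ms4a genes encode small proteins that cross the membrane several times and lie side by side in 1 cluster, on chromosome 19 in the mouse. The family includes CD20 of B cells (Ms4a1) and the beta chain of the high-affinity IgE receptor of mast cells (Ms4a2), and several members act beside immune receptors in the membrane. In the brain, Ms4a7 is a known marker of border-associated and monocyte-derived macrophages, Ms4a6c and Ms4a4c are known from monocytes, and Ms4a4b is known from T cells.

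All 7 genes were higher on average in EAE, with differences from 0.47 to 1.46 on the log2 scale and a median of 0.715. Values are the authors' regularised log (rlog) values, a log2 scale in which each gene is drawn towards its own mean, the more so at low counts. Of the 7 genes, 2 passed an adjusted p of 0.05 in a limma fit over 18161 genes, and both rose: Ms4a6d by 1.46 and Ms4a4b by 0.72. The same rule called 312 of all tested genes higher in EAE, or 1.72%, and 121 lower, or 0.666%. At an unadjusted p under 0.05, limma placed 7 of the 7 genes higher in EAE, beside 9.17% of all genes tested. For 6 of the 7 genes every EAE sample lay above every OVA sample, beside 12.1% of all tested genes, and Ms4a4c was the exception. The median difference over all tested genes was -0.002.

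The coordinates below are those of GRCm38. The 7 genes are the 12th to the 19th of 21 Ms4a genes in chromosome order, with Ms4a4d among them, and they spanned 283.8 kb of a cluster that runs from chr19:10962293-11640851. Of the 7, 5 lie on the plus strand, and Ms4a6d and Ms4a7 lie on the minus strand. Some are close copies of each other. The coding sequences of Ms4a4b and Ms4a4c were identical at 622 of 678 aligned bases (91.7%), and those of Ms4a6b and Ms4a6c at 554 of 641 (86.4%). Ms4a6d was 81.8% identical to Ms4a6b and 79.6% to Ms4a6c. Reads that such pairs share could have been dropped or assigned to either copy, and the sources used here do not state how the authors' counting treated them. The share of 50-base words in a gene's transcripts that also occurred in another Ms4a gene is a rough guide to where that could matter. It counts exact matches among Ms4a genes only, so reads with mismatches and other genes were not covered. The share was 8.19% for Ms4a4c, 5.85% for Ms4a6c, 3.44% for Ms4a6b, 2.31% for Ms4a6d and 2.24% for Ms4a4b. No such word was shared by Ms4a4a or Ms4a7.

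The likeness of these pairs extended to the bases before their RefSeq start sites. RefSeq promoter sequences (GRCm38.p6) were found for 6 of the 7 genes, in 7 windows because Ms4a7 has 2 start sites. Over the 250 bases before the start, Ms4a6c and Ms4a6b were identical at 149 of 175 aligned bases (85.1%) and Ms4a4c and Ms4a4b at 185 of 231 (80.1%). The windows of Ms4a6b and Ms4a4c lie inside the annotated spans of these genes. In the Ms4a6b window 106 bases are annotated exon of Ms4a6b, so the likeness of that pair is not one of bases outside exons alone. The letters GAAANNGAA, the core of sites known for interferon regulatory factors, were searched on both strands and occurred in 4 of the 7 windows. They occurred in 7.13% of all 32851 promoter windows of that length. The 4 windows are the 2 start sites of Ms4a7 and the close copies Ms4a6c and Ms4a6b, so they are not 4 independent matches. GAGGAAG, a core known for PU.1, TTGCNNAA, a C/EBP palindrome, and TTCNNNGAA, a STAT palindrome, had no match in the 7 windows. They occurred in 10.61%, 9.56% and 7.02% of all windows. The 4 stretches with GAAANNGAA are shown 5′ to 3′ on the strand of the gene, with the match in capitals, because these are the windows that hold the motif and the Ms4a6c and Ms4a6b copies can be read against each other. The longest identical run of that pair, 48 bases, lies nearer to the start sites and is not shown. In the first Ms4a7 stretch the match is on the opposite strand, so it reads as its reverse complement. A match is a description of the letters only, and no binding was measured here.
Ms4a6c, chr19:11469198-11469277, plus strand: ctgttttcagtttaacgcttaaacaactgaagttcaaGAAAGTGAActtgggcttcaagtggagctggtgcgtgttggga
Ms4a6b, chr19:11518316-11518395, plus strand: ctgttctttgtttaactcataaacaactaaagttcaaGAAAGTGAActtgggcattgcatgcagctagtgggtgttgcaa
Ms4a7, chr19:11336187-11336266, minus strand: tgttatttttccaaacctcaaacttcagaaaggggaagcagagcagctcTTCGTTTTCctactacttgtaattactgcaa
Ms4a7, other start site, chr19:11334801-11334880, minus strand: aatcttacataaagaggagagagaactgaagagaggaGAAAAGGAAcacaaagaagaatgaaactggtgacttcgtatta

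The Ms4a4c and Ms4a4b stretches below show the other closely related pair, with their longest identical run, 20 bases, in capitals. All 6 stretches lie before the first exon of the transcript whose start was used, and none overlaps an exon of the annotation.
Ms4a4c, chr19:11407536-11407650, plus strand: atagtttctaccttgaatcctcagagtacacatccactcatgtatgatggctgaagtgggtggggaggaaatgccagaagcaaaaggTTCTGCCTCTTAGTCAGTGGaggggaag
Ms4a4b, chr19:11443430-11443544, plus strand: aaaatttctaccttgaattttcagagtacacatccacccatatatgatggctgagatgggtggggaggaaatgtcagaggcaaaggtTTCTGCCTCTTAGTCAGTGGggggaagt

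Several features of the 6 samples bear on every value that follows. The capture held oligodendrocytes, as its label says: the 12 oligodendrocyte markers averaged from 15.02 to 15.72 in all samples. It also held other cells, and the 14 general myeloid markers averaged from 10.79 to 11.97. OVA sample 3 stood apart from the other OVA samples, by 2.89 in the mean of 8 neutrophil markers, 1.29 in 8 B cell markers and 1.11 in 14 infiltrating monocyte markers. Xist was between 13.51 and 14.16 in EAE and between 7.39 and 7.63 in OVA, and the Y-linked gene Ddx3y was lower in EAE by 1.44 (limma adjusted p = 0.0153), as was Kdm5d by 1.26 (0.0307). Ddx3y still read 10.18, 10.17 and 9.44 in the EAE samples, beside 11.46, 11.38 and 11.29 in the OVA samples. The EAE samples thus carried both Xist and Y-linked transcripts. Because these sex-linked genes differed between the groups, immunisation and the sex make-up of the samples cannot be told apart. In bulk samples of this kind, fewer cells of a type and less RNA per cell cannot be told apart either. The labels do not say whether the samples share a preparation, so the p-values measure the spread between these 6 samples.

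The Ms4a6 genes encode membrane proteins known from macrophages and monocytes, and Ms4a6d gave the largest difference of the 7 genes. Ms4a6d (ENSMUSG00000024679.10, chr19:11586604-11604849) read 9.53, 9.27 and 8.93 in the 3 EAE samples and 7.76, 7.54 and 8.05 in the 3 OVA samples. Every EAE sample lay above every OVA sample, with a gap of 0.89 between EAE sample 3 and OVA sample 3. The mean was 9.24 ± 0.30 (SD, n = 3) in EAE and 7.78 ± 0.26 (SD, n = 3) in OVA. The difference was 1.46 ± 0.18 (SE), a 2.76-fold level, with a 95% interval from 1.04 to 1.89 (limma adjusted p = 0.013). The call was lost when EAE sample 2, OVA sample 1 or OVA sample 2 was left out, with limma adjusted p of 0.0738, 0.0513 and 0.0663, while the difference stayed between 1.32 and 1.62 over all 6 omissions. It was also lost with a Y-linked covariate, the mean rlog of the Y-linked genes of a sample added as a term to the fit, at 2.14 ± 0.46 (SE; limma adjusted p = 0.363). The 4 Y-linked genes were each lower in every EAE sample than in every OVA sample, so that term largely follows the groups. For this and the other genes, that fit cannot tell the term and the groups apart, whether a call is lost or a difference moves.

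Ms4a6c (ENSMUSG00000079419.4, chr19:11469366-11482192), a gene that marks inflammatory monocytes, read 9.74, 9.67 and 9.36 in EAE and 8.37, 8.42 and 9.16 in OVA. OVA samples 1 and 2 lay far below the EAE range and OVA sample 3 lay 0.21 below it. The means were 9.59 ± 0.20 and 8.65 ± 0.44 (SD, n = 3 each). The difference of 0.94 ± 0.22 (SE), 1.92-fold, did not pass the threshold (limma adjusted p = 0.0747). Without OVA sample 3, it was 1.20 and passed (limma adjusted p = 0.00348).

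Ms4a6b (ENSMUSG00000024677.13, chr19:11516512-11531256), the close copy of Ms4a6c, read 8.94, 8.85 and 8.38 in EAE and 8.06, 8.08 and 8.28 in OVA. The groups were separated by 0.11, again between EAE sample 3 and OVA sample 3. The means were 8.72 ± 0.30 and 8.14 ± 0.12 (SD, n = 3 each), a difference of 0.59 ± 0.16 (SE), or 1.5-fold (limma adjusted p = 0.115). It passed when EAE sample 3 was left out (limma adjusted p = 0.0407), and was 1.305 ± 0.35 (SE) with a Y-linked covariate (limma adjusted p = 0.564).

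Among the Ms4a4 genes, Ms4a4b was the one called higher. Ms4a4b (ENSMUSG00000056290.16, chr19:11443553-11467055) encodes a membrane protein of T cells that is known to restrain their proliferation. It read 5.45, 5.66 and 5.43 in EAE and 4.67, 4.77 and 4.96 in OVA. The groups did not overlap, with 0.47 between them, and both were tight. The means were 5.51 ± 0.13 and 4.80 ± 0.15 (SD, n = 3 each), and the difference was 0.72 ± 0.11 (SE), 1.64-fold, with a 95% interval from 0.47 to 0.96 (limma adjusted p = 0.0215). The call held without EAE sample 3 and without OVA sample 3. It was lost without EAE sample 1, EAE sample 2, OVA sample 1 or OVA sample 2, with limma adjusted p of 0.0704, 0.104, 0.0669 and 0.0987, and with a Y-linked covariate (1.0).

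Ms4a4c (ENSMUSG00000024675.19, chr19:11404770-11427246), an interferon-inducible gene and the close copy of Ms4a4b, read 7.99, 8.10 and 7.14 in EAE and 6.46, 6.63 and 7.15 in OVA. It was the one gene of the 7 whose groups overlapped, because EAE sample 3 lay 0.01 below OVA sample 3. The means were 7.74 ± 0.53 and 6.75 ± 0.36 (SD, n = 3 each), and the difference was 0.99 ± 0.28 (SE), 1.99-fold (limma adjusted p = 0.131). Leaving out EAE sample 3 or OVA sample 3 brought it past the threshold (limma adjusted p = 0.0436 and 0.0422), and a Y-linked covariate gave 2.07 ± 0.69 (SE; limma adjusted p = 0.831). The Ms4a4c difference exceeded that of Ms4a4b in size, but its samples spread more widely, with an SD in EAE of 0.53 beside 0.13.

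Ms4a4a (ENSMUSG00000101389.1, chr19:11375523-11392790) is known from alternatively activated macrophages, where its protein pairs with the beta-glucan receptor Dectin-1. It read 7.63, 7.53 and 7.03 in EAE and 6.97, 6.94 and 6.88 in OVA. The OVA samples were within 0.1 of each other and EAE sample 3 lay only 0.06 above them. The difference of 0.47 ± 0.16 (SE), 1.38-fold, was the smallest of the 7 and did not pass the threshold (limma adjusted p = 0.209), nor did it when any one sample was left out. With a Y-linked covariate it was 1.39 ± 0.28 (SE; limma adjusted p = 0.344). The gene of its partner, Clec7a, had a larger difference: it read 12.84, 12.23 and 11.71 in EAE and 8.91, 8.92 and 9.88 in OVA. Clec7a rose 8.13-fold, by 3.02 ± 0.34 (SE; limma adjusted p = 0.00978). That call was lost without EAE sample 2 (0.0549) or OVA sample 2 (0.0644) in the same limma test.

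Ms4a7 (ENSMUSG00000024672.11, chr19:11321039-11336146), the border and monocyte-derived macrophage marker, read 7.81, 8.03 and 8.05 in EAE and 7.38, 7.19 and 7.72 in OVA. The groups were separated by 0.09, between EAE sample 1 and OVA sample 3. The means were 7.96 ± 0.13 and 7.43 ± 0.27 (SD, n = 3 each), a difference of 0.53 ± 0.15 (SE), or 1.45-fold (limma adjusted p = 0.134). It passed without OVA sample 3, at 0.68 (limma adjusted p = 0.0192). With a Y-linked covariate it was 0.13 ± 0.42 (SE; limma adjusted p = 1.0).

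**Figure D1:**
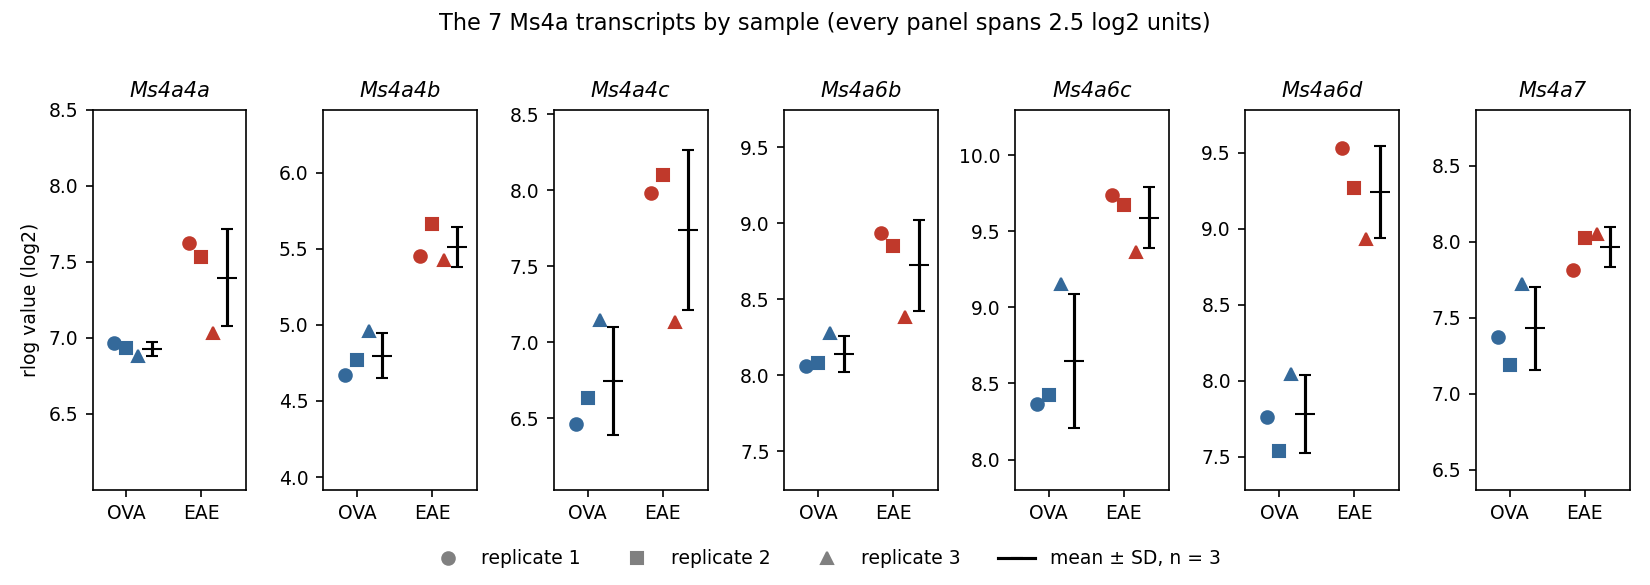
rlog value (log2) of each of the 7 Ms4a genes in the 3 OVA samples (blue) and 3 EAE samples (red), 1 panel a gene, all panels spanning the same number of log2 units; marker shapes give the replicate and black bars the group mean and SD (n = 3). The EAE points lie above all OVA points for 6 genes, with the widest gap for Ms4a6d (0.89), and overlap for Ms4a4c.

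The order of the samples was similar from gene to gene. EAE sample 3 was the lowest EAE sample for 6 of the 7 genes, and OVA sample 3 was the highest OVA sample for 6 of the 7. Ms4a7 was the exception in EAE, where sample 3 was its highest, and Ms4a4a was the exception in OVA, where sample 3 was its lowest. The share of all tested genes with this order was not counted. Outside the 7, Ccr2 and Clec7a also had EAE sample 3 lowest and OVA sample 3 highest, while Ms4a1 had sample 3 highest in both groups. The excess of OVA sample 3 over the average of OVA samples 1 and 2 was 0.76 for Ms4a6c, 0.60 for Ms4a4c and 0.44 for Ms4a7. It was 0.40 for Ms4a6d, 0.24 for Ms4a4b, 0.21 for Ms4a6b and -0.07 for Ms4a4a. Over the 6 samples, Pearson's r between members was highest for Ms4a4c with Ms4a6b, at 0.98, and lowest for Ms4a4a with Ms4a7, at 0.52. Within the groups, after each group mean was taken away, Ms4a4c and Ms4a6b still gave 0.95, while Ms4a7 gave 0.03 with Ms4a6b and -0.39 with Ms4a4a. These correlations describe 6 samples that share their libraries and, in the first case, the contrast itself.

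The changes of the members were then set against each other in pairs. Of 21 pairs of members, 5 had a difference between the 2 genes that did not overlap between EAE and OVA, and Ms4a6d, the gene with the largest difference, was in each of the 5. A gene that does not change also separates from Ms4a6d in this way: of all other tested genes, 98.5% were lower relative to Ms4a6d in every EAE sample, so the pairs do not set Ms4a6d apart from its relatives. The EAE change of Ms4a6d exceeded that of Ms4a7 by 0.93. The same comparison, written as the other gene minus Ms4a6d, gave -0.996 for Ms4a4a, -0.88 for Ms4a6b, -0.75 for Ms4a4b and -0.52 for Ms4a6c. Each gave an exact two-sided permutation p of 0.1, the smallest that 3 against 3 samples allow, and 0.42 after Benjamini-Hochberg adjustment over the 21 pairs. The sixth pair, Ms4a4c minus Ms4a6d, gave -0.47 with overlapping groups (exact permutation p = 0.2).

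To set levels of different genes side by side, values were scaled by length, as rlog minus log2 of the length of all exons in kb. On that scale the order in EAE was Ms4a6c at 8.56, Ms4a6d at 8.45, Ms4a4a at 7.65, Ms4a4c at 6.93, Ms4a6b at 6.56, Ms4a7 at 5.81 and Ms4a4b at 2.38. In OVA it was Ms4a6c at 7.61, Ms4a4a at 7.19, Ms4a6d at 6.99, Ms4a6b at 5.97, Ms4a4c at 5.94, Ms4a7 at 5.27 and Ms4a4b at 1.66. Some neighbours in the order differed by less than the larger SD of the pair, namely Ms4a6c and Ms4a6d and also Ms4a4c and Ms4a6b in EAE. In OVA these were Ms4a6c and Ms4a4a, Ms4a4a and Ms4a6d, and Ms4a6b and Ms4a4c. The order depended on the length used. With the longest coding transcript in place of all exons, Ms4a6d came first in EAE at 8.74, beside Ms4a6c at 8.71, and Ms4a7 at 7.31 lay above Ms4a4c at 6.95. In OVA, Ms4a6d at 7.28 then lay above Ms4a4a at 7.19, and Ms4a4b stayed last in both groups, at 3.27 in EAE and 2.55 in OVA.

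Most other genes of the Ms4a cluster were too low to test. Of 15 other Ms4a genes listed, 14 were matched and 4 had a mean rlog of at least 3, the limit for testing. None of the 4 was called by limma, and 1 had an unadjusted p under 0.05. That gene, Ms4a8a, read 5.68, 5.25 and 4.61 in EAE and 4.32, 4.34 and 4.46 in OVA. Its groups did not overlap, and its difference of 0.81 ± 0.24 (SE; limma adjusted p = 0.142) was larger than those of Ms4a4a, Ms4a7, Ms4a6b and Ms4a4b. It passed without EAE sample 3 (limma adjusted p = 0.0186).

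Ms4a1, which encodes CD20 of B cells, differed by -0.20 ± 0.29 (SE; limma adjusted p = 0.779), with OVA sample 3 the highest of all samples at 7.36. Without that sample the difference was 0.15 (limma adjusted p = 0.556). Ms4a3, known from granulocyte and monocyte progenitors, read 4.54 in OVA sample 3 and from 3.21 to 3.23 in the other 5 samples, a difference of -0.45 ± 0.32 (SE; limma adjusted p = 0.537). Ms4a14 differed by 0.10 ± 0.09 (SE; limma adjusted p = 0.615). Ms4a2 of mast cells (from 1.64 to 1.91), Ms4a4d (from 2.07 to 2.21) and Ms4a19 (from -1.49 to -1.47) were under the limit. Ms4a5, Ms4a10, Ms4a12, Ms4a13, Ms4a15, Ms4a18 and Ms4a20 were listed at 0 in all 6 samples. Tmem176a and Tmem176b, which encode related membrane proteins of myeloid cells, differed by -0.20 and -0.25 (limma adjusted p = 0.539 and 0.408).

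Genes that flank the cluster give the same comparison for other genes of the region. Of 16 tested genes in the 500 kb before the cluster, 3 were called higher in EAE and none lower, and the median difference was 0.02. They were Slc15a3, which encodes a peptide transporter of lysosomes (1.61, limma adjusted p = 0.00567), and the T cell surface genes Cd5 (0.62, 0.0116) and Cd6 (0.61, 0.0113). Slc15a3 kept its call in all 6 omissions of 1 sample. Cd5 was not called by limma without EAE sample 2 (0.0738) or OVA sample 2 (0.0663), and Cd6 was not called without EAE sample 1 (0.0524), EAE sample 2 (0.066) or OVA sample 2 (0.0663). Of 3 other genes tested inside the cluster, none was called; AW112010, a transcript induced by inflammation, differed by 1.54 (limma adjusted p = 0.0508). After the cluster, 4 genes differed by 0.005 to 0.08 and none was called.

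**Figure D2:**
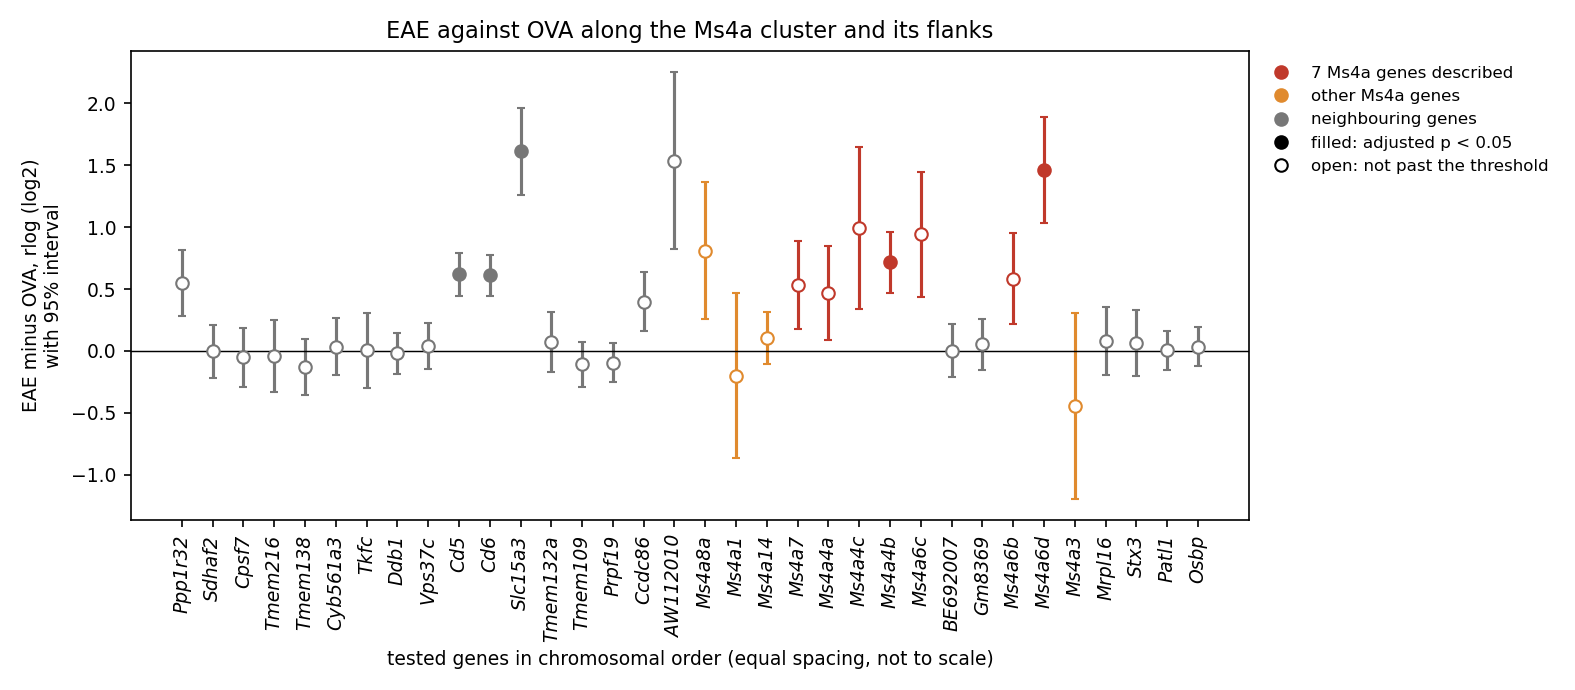
EAE minus OVA difference in rlog (log2) with its 95% interval for each tested gene of the Ms4a cluster and its flanks, in chromosomal order and equally spaced; red marks the 7 Ms4a genes, orange the other Ms4a genes and grey the neighbours, and filled points passed the limma adjusted p of 0.05. The red points lie between 0.47 and 1.46, beside most neighbours near 0 and Slc15a3 and AW112010 at 1.61 and 1.54.

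Markers of the cells in which these genes are known moved with the groups too, each list with its own size. Of the 14 general myeloid markers, 8 were called higher in EAE and none lower. All 14 had a positive difference, beside 49.3% of all tested genes. The median difference was 0.817, and the mean of the list ranged from 11.74 to 11.97 in EAE and from 10.79 to 11.21 in OVA. Those called included Ctss, a lysosomal protease (1.49), Cd14, the lipopolysaccharide co-receptor (1.32), and Cyba, a subunit of the phagocyte oxidase (1.27). The count called was 2 without EAE sample 1, EAE sample 2 or OVA sample 2, 5 without EAE sample 3, 4 without OVA sample 1 and 12 without OVA sample 3. Csf1r, the receptor for the growth factor of macrophages and microglia, differed by 0.03 (limma adjusted p = 0.929), and the leukocyte gene Ptprc by 0.42 (0.249).

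The mean of the infiltrating monocyte markers ranged from 9.72 to 10.39 in EAE and from 8.11 to 9.25 in OVA. The median difference was 0.724. All 14 genes had a positive difference, and 4 were called higher: Arg1, an arginine-degrading enzyme (29.1-fold), Gpnmb, a glycoprotein of phagocytes (21.2-fold), the coagulation factor gene F10 (10.6-fold) and Ly6i (9.78-fold). The count called was 2 without EAE sample 2 or OVA sample 2 and 10 without OVA sample 3. Ccr2, the chemokine receptor of inflammatory monocytes, differed by 0.72 (limma adjusted p = 0.289), with OVA sample 3 above the other OVA samples by 1.10.

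The border macrophage list moved in both directions: of 12 genes, 3 had a positive difference, and the median was -0.189. Siglec1, which encodes a sialic acid receptor, was called higher, by 1.115, and Lyve1, which encodes a hyaluronan receptor, was called lower, by 0.70. Mrc1, the mannose receptor of these cells, differed by -0.52 (limma adjusted p = 0.131). None of the 11 homeostatic microglia markers had a difference above 0, and 3 were called lower, namely P2ry12, Fcrls and Slc2a5, by 1.02, 0.89 and 0.75. None of the 11 was called without EAE sample 1, EAE sample 2, OVA sample 1 or OVA sample 2 (limma; between 6 and 8 had an unadjusted p under 0.05), and 5 were called without EAE sample 3. Tmem119, a microglial membrane protein, differed by -0.36 (limma adjusted p = 0.163).

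T cell markers bear on Ms4a4b. Of 15, 9 were called higher in EAE and all 15 had a positive difference. The median was 0.611, with list means from 5.49 to 5.62 in EAE and from 4.94 to 5.05 in OVA. The largest changes were those of Icos, a co-stimulatory receptor (1.04, limma adjusted p = 0.00856), and Lck, the kinase of T cell receptor signalling (0.93, 0.0251). Cd3e, a chain of the T cell receptor complex, read 5.50, 5.41 and 5.49 in EAE and 4.61, 4.6 and 4.68 in OVA (0.84, limma adjusted p = 0.00446). The count of T cell markers called was 5 without EAE sample 1, EAE sample 3 or OVA sample 1 and 1 without EAE sample 2 or OVA sample 2. The natural killer, B cell, neutrophil and mast cell lists had no gene called by limma, and 1, 1, 1 and 0 genes with an unadjusted p under 0.05. Their medians were 0.18, -0.419, -1.106 and 0.106. No marker of any of these lists was at 0 in all samples. The part of these cells in the Ms4a differences was not tested.

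**Figure D3:**
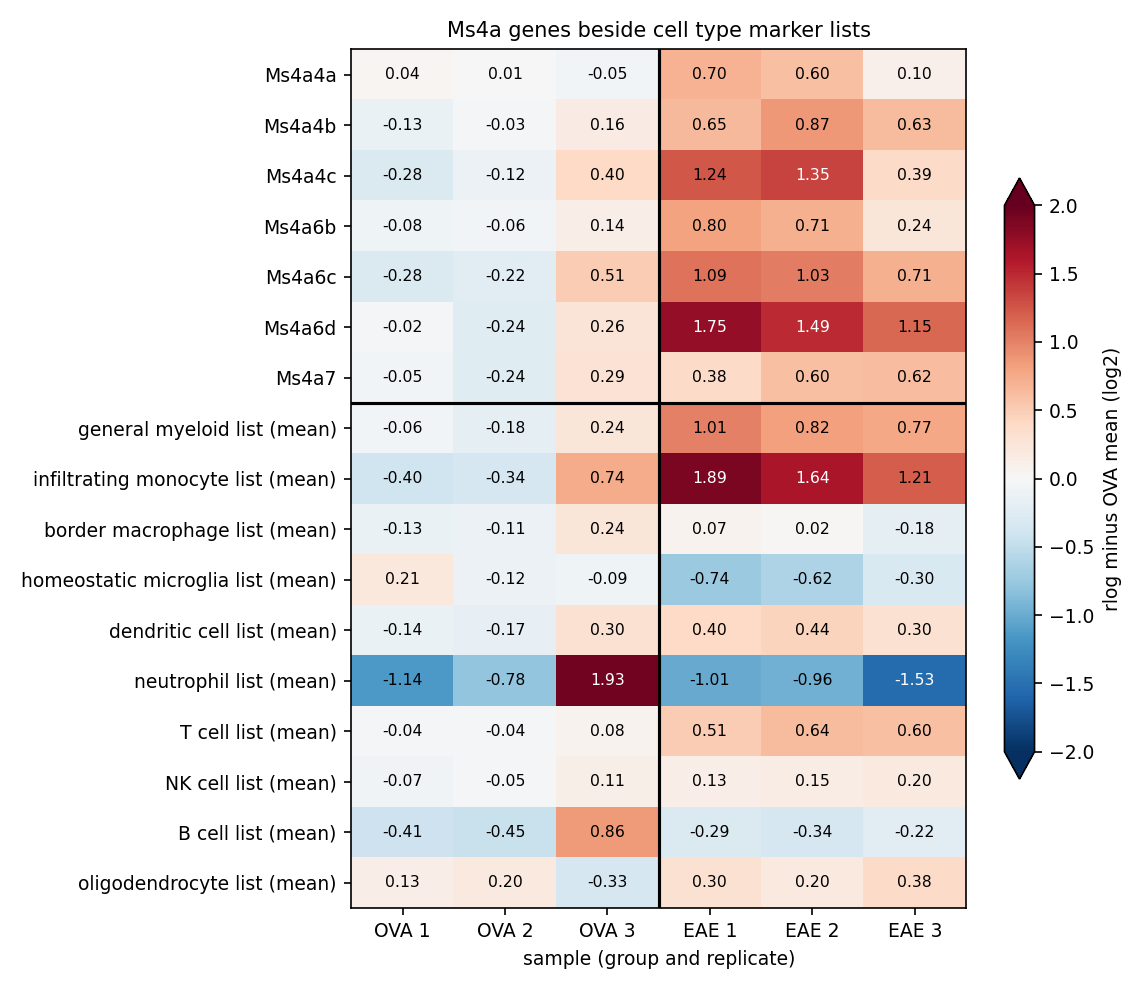
rlog of each of the 7 Ms4a genes and per-sample mean rlog of 10 marker lists, each minus the mean of the 3 OVA samples in its row (log2, colour and printed value), with OVA and EAE samples in columns. The Ms4a rows except Ms4a4c and the general myeloid, infiltrating monocyte and T cell lists are higher in every EAE sample than in every OVA sample. So are the natural killer and oligodendrocyte lists, but only narrowly, and Ms4a4c overlaps. The homeostatic microglia list is lower in every EAE sample. OVA sample 3 stands out for neutrophil, B cell and infiltrating monocyte markers.

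Each gene was then set against the myeloid markers of its own sample, which asks whether it moved more than they did. The T cell list was not used as a reference, so Ms4a4b, known from T cells, was not set against T cell markers in this way. Relative to the general myeloid mean, Ms4a6d read -2.44, -2.52 and -2.81 in EAE and -3.15, -3.25 and -3.16 in OVA. It was thus higher in every EAE sample, by 0.60, beside 0.551% of all tested genes. That share covers all tested genes, not myeloid genes alone. The markers of the list themselves differed by 0.03 to 1.76, and Ctss by 1.49, so the 1.46 of Ms4a6d lay within their range. Ms4a7 and Ms4a6b were lower in every EAE sample, with differences of -0.33 and -0.28, beside 93.6% of all tested genes, and the myeloid mean itself was higher in every EAE sample. Each of the 3 gave an exact two-sided permutation p of 0.1, the smallest possible, and 0.233 after adjustment over the 7 genes. The other 4 genes overlapped between the groups, with differences of -0.40 for Ms4a4a, -0.15 for Ms4a4b, 0.13 for Ms4a4c and 0.08 for Ms4a6c and exact permutation p between 0.2 and 0.8.

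The sign depended on the reference list for all 7 genes, and each list's own movement sets how many of all genes separate. Relative to the homeostatic microglia markers, whose mean in every EAE sample lay below every OVA sample, all 7 genes were higher in every EAE sample, by 1.02 to 2.02. So were 73.9% of all tested genes. Relative to the border macrophage markers all 7 were higher in every EAE sample, by 0.49 to 1.49, beside 9.3% of all tested genes (exact permutation p = 0.1 for each gene with either list, adjusted 0.1). The border macrophage mean overlapped between the groups, from 8.20 to 8.45 in EAE and from 8.24 to 8.61 in OVA. These differences therefore stay close to those without a reference, 0.47 to 1.46, and add little to them. Relative to the infiltrating monocyte markers all 7 differences were negative, from -1.11 for Ms4a4a to -0.12 for Ms4a6d. There, 5 genes were lower in every EAE sample (exact permutation p = 0.1, adjusted 0.14), beside 94.2% of all tested genes, and Ms4a4c and Ms4a6d overlapped. The mean of that list was moved by Arg1, Gpnmb, F10 and Ly6i, with differences of 4.86, 4.40, 3.41 and 3.29, and the list's median difference was 0.724. Ms4a6d, Ms4a4c and Ms4a6c had differences above that median.

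**Figure D4:**
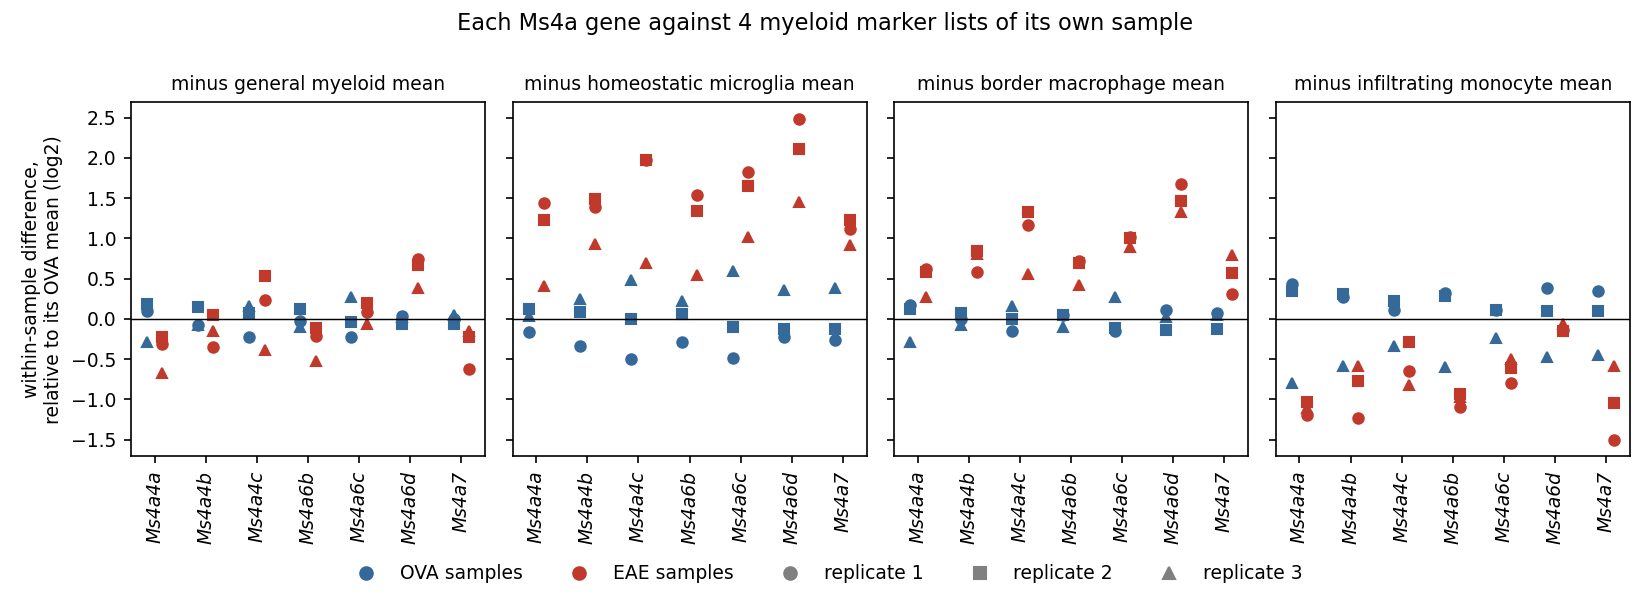
rlog of each of the 7 Ms4a genes minus the mean of a marker list in the same sample, shown relative to the OVA mean of that difference (log2), 1 panel for each of 4 lists; blue points are OVA samples, red points EAE samples and shapes the replicate. Against homeostatic microglia and border macrophage markers every gene's EAE points lie above its OVA points, and against general myeloid markers Ms4a6d is the one gene whose EAE points all lie above OVA.

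The genes with the most similar profiles over the 6 samples were sought among 14418 protein-coding genes, by the root mean square distance after each gene was centred on its own mean. For Ms4a6d they were H2-Eb1 (distance 0.052, r = 0.998), Tlr2 (0.067) and Tnf (0.088). For Ms4a6c they were Nfkbie (0.082, r = 0.989), Fcer1g (0.093) and Tapbpl (0.094), and for Ms4a6b they were Nfkb2 (0.063, r = 0.987), Furin (0.067) and Rab3b (0.072). Ms4a4c lay closest to Parp14 (0.1, r = 0.994), Mefv and Wfdc17, and Ms4a4a to Sbno2 (0.044, r = 0.991), Serpina3m and Slc39a14. Ms4a4b lay closest to Ly6h (0.046, r = 0.993), Cdhr4 and Klrb1b, and Ms4a7 to P2ry10 (0.061, r = 0.984), Cd2 and Ppp1r32. With 6 samples in 2 groups, a gene pair can be close through the contrast alone, so the distances are given as a description.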

How the data were processed

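The authors deposited 1 table of rlog values, on a log2 scale, for 6 samples and 55298 gene identifiers, and no column was without a sample. The library kit was TruSeq Stranded mRNA, per the labels' protocols. DESeq2 1.24.0, STAR 2.6.1c, Subread 1.6.1, cutadapt 1.18 and bcl2fastq 2.17, and the build GRCm38, are named without role or order in the submitters' processing notes. The table gives no counts, so depth is unknown. Replicate numbers follow the order of the samples and pair nothing.

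Symbols came from GENCODE M21, which matched 54550 identifiers (98.65%). Genes with a mean rlog of at least 3 (18161) were fitted with limma 3.58.1 (R 4.3.3), two-sided, with an intensity trend and Benjamini-Hochberg adjustment at 0.05. Folds are 2 to the power of the difference. In simulated data for EAE against OVA over 18161 genes, limma recovered 26% of 50 genes changed by 0.5, 84% by 1 and 100% by 2, with 4 false calls. Each simulated gene had the same spread in all 6 samples, and no simulated sample stood apart as OVA sample 3 did. The shares recovered may therefore be too high for these data. Sequences were compared with Python 3.11.15 and Biopython 1.88.

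The 7 genes and all lists were chosen with earlier results of these data known. Every member and every other listed Ms4a gene that was matched is named. For each list up to 3 called genes with the largest change are named, for each member the 3 nearest profiles, and Mbp, Xist, Ddx3y, Ptprc, Csf1r, Tmem119, Mrc1, Ccr2 and Cd3e as context. The flanking genes, the fourth monocyte gene and the sequence stretches were picked after their values or letters were seen. Alternatives were other filters, moderation, sample weights, scalings, a Y-linked covariate, other reference lists and leaving out each sample.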

Additional observations from a re-analysis of the deposited data

How the results depend on the processing

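No paired analysis was possible because the labels give the samples no shared replicate numbers. All 7 members kept a positive difference under every alternative run, but some sizes moved. The count of 2 members called was the same with no filter, a filter at 5, no intensity trend, robust moderation, equal medians and quantile normalization. It was 7 with sample quality weights, whose estimation had not converged and which gave OVA sample 2 a weight of 8.8498. With a Y-linked covariate limma called 0 members (4 had an unadjusted p under 0.05), and 1 gene of all tested was called higher in EAE and none lower. With that covariate the difference of Ms4a7 fell from 0.53 to 0.13 ± 0.42 (SE), while those of Ms4a4a, Ms4a4c and Ms4a6b went from 0.47 to 1.39, from 0.99 to 2.07 and from 0.59 to 1.305. Those of Ms4a4b, Ms4a6c and Ms4a6d were 0.73, 1.14 and 2.14. The covariate did not overlap between the groups, and the SE of Ms4a6d went from 0.18 to 0.46 with it. The fit therefore cannot tell the covariate and the groups apart, and no conclusion is drawn from these shifts. Leaving out 1 sample gave 0 to 5 members called. The count was 0 without EAE sample 2, OVA sample 1 or OVA sample 2 (limma; 6, 7 and 6 with an unadjusted p under 0.05). For the other Ms4a and related genes the count of 1 (Clec7a) became 2 with sample weights, 0 with the Y-linked covariate (limma; 2 with an unadjusted p under 0.05) and 0 to 2 on leaving out 1 sample. Of the 7 members, 3 had a positive mean difference relative to the general myeloid mean, although 1 of them, Ms4a6d, was higher in every EAE sample. The count of positive differences was 2 to 3 on leaving out 1 sample, 7 with the homeostatic microglia or the border macrophage list and 0 with the infiltrating monocyte list. The Ms4a1 difference ran from -0.467 to 0.154 on leaving out 1 sample, and turned positive without OVA sample 3. Over all genes, 312 higher and 121 lower became 2858 and 2233 with sample weights, 1 and 0 with the Y-linked covariate, and 24 to 850 and 1 to 346 on leaving out 1 sample. The counts for marker lists under these settings were added after the data were seen. Depth is unknown, so no detection limit can be given.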

Other observations

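Mbp, which encodes a main protein of myelin, ranged from 16.87 to 17.73 over the 6 samples and differed by 0.47 between EAE and OVA (limma adjusted p = 0.408). Of the dendritic cell markers, 7 were tested. Itgax, an integrin chain, rose by 1.95 (limma adjusted p = 0.0118), Cd209a, a lectin, fell by 0.67, and the median was 0.352. Of 8 oligodendrocyte precursor markers, 1 was called, Ptprz1, a receptor phosphatase, which fell by 0.63 (limma adjusted p = 0.0485). Among 6 astrocyte markers tested, Gfap, the intermediate filament gene, was called higher, by 1.35, and Slc1a2, Slc1a3 and Gja1 were called lower. All 8 endothelial markers were under 0, with a median of -0.551, and none was called by limma, while 4 had an unadjusted p under 0.05.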
